A study of Mus musculus with 4 samples.

Results

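The NRF2 target genes described here are 10 genes that encode enzymes and stress proteins of the antioxidant response: Gclm, Gclc, Nqo1, Txnrd1, Srxn1, Hmox1, Slc7a11, Osgin1, Gsr and Sqstm1. They were chosen by gene symbol, and all 10 were present among the 32285 genes of the count matrices. Single-cell libraries were made with 10× Genomics 3′ chemistry from the left ventricle of male C57BL/6J mice, with 1 library for each of 4 conditions. The young mice were 3 to 5 months old and the aged mice 24 to 26 months old, and each age was represented under sham conditions and after 45 minutes of ischemia with 24 hours of reperfusion (I/R) in coronary (LAD) surgery. All mice were wild type. The sample labels describe the sham mice as healthy and unaltered, whereas the study's methods describe sham operations, and neither gives the number of animals behind a library. The labels also give nuclear RNA as the molecule, while the methods describe cell suspensions of the whole ventricle.

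NRF2, encoded by Nfe2l2, is a transcription factor that is kept scarce in unstressed cells because KEAP1 hands it to a CUL3 ubiquitin ligase. Oxidants and electrophiles modify cysteines of KEAP1, NRF2 then accumulates, pairs with a small MAF protein and binds antioxidant response elements (AREs) in the control regions of its targets. These targets make glutathione, regenerate thioredoxin and peroxiredoxins, and clear quinones and heme. BACH1 competes for the same elements as a repressor, and several targets are also driven by other stress factors, among them ATF4 at Slc7a11. Reperfusion of ischemic heart muscle is a classic source of oxidants.

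The values are unique molecular identifiers (UMIs) of a gene summed over all barcodes of a library and divided by the library's total, multiplied by 1000000, given as CPM. The libraries held 91124 to 102883 barcodes each and 25836175 to 66767829 UMIs in all, with a median UMI count per barcode of 244 and 374 in the young sham and young I/R libraries and of 391 and 675 in the aged ones. With 1 library per condition no test between conditions was possible. Every interval given below for a level or a ratio is an exact 95% interval for counting error only, which does not include the differences between animals. The bounds on differences of the I/R response between ages are wider than that. Pairs of libraries shared 2366 to 2843 barcode sequences. Barcodes with at least 200 genes made up 28.4% of the young sham library and 55.2% of the young I/R library. For the aged libraries these shares were 67.9% (sham) and 98.8% (I/R). The setting limited to such barcodes thus kept different shares of each library. A difference between summed libraries can come, among other sources, from fewer cells of a type or from less RNA per cell. These cannot be told apart here. Whether every barcode held a cell, or RNA from outside cells, was not tested.

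The promoters of 3 members are shown, as these held an ARE core, AP-1 or CARE motif near the start site without an annotated exon in the stretch. They are taken from RefSeq (GRCm38.p6), cover positions -140 to -21 relative to the start of the gene, where 1 is the first transcribed base, and run 5′ to 3′ on the strand of the gene. None of these stretches overlapped an annotated exon, whereas those of Txnrd1 and Osgin1, which also held such a motif, did and are not shown. Capitals mark an ARE core in Gclm, AP-1 motifs in Srxn1 and CARE motifs, which ATF4 can bind, in Slc7a11.
Gclm, chr3:122245417-122245536, plus strand: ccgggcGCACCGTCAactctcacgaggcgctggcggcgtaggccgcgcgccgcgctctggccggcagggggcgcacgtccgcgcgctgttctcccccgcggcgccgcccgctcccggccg
Srxn1, chr2:152105384-152105503, plus strand: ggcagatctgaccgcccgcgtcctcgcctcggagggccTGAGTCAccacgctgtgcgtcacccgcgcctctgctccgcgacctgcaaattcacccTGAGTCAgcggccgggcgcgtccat
Slc7a11, chr3:50443634-50443753, minus strand: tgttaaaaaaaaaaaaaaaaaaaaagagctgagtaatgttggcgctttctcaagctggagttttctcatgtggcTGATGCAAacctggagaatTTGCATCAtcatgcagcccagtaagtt
The 4 motifs were searched on both strands in windows from 250 bases before to 50 bases after each start. The ARE core was written TGACNNNGC, a looser form of it TGANNNNGC, the AP-1 motif TGANTCA and the CARE motif TGATGNAA, and every ARE core is also a match of the looser form. Of the 10 members, 7 had a window, and the 3 others were Gclc, Hmox1 and Gsr. The 7 had 9 windows in all. The ARE core was found in 3 of the 9 windows, in Gclm at -134, in 1 of the 3 Txnrd1 windows at -92 and in Srxn1 at 29, and 12.4% of all 32851 promoter windows held it. The looser form was found in 6 of the 9 windows, against 41.3% of all windows, and the AP-1 motif in 2, those of Srxn1 and Osgin1, against 7.81%. Of the 7, Slc7a11 alone held the CARE motif, at -66 and again on the opposite strand at -47, where 3.97% of all windows held it. The AP-1 motifs at -45 in Srxn1 and at -97 in Osgin1 and the CARE motif at -47 in Slc7a11 each overlap a looser ARE. Nqo1 and Sqstm1 held none of the 4 motifs within these windows. A motif match is a description of letters and shows no binding.

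Under I/R conditions the sum of the 10 members was higher in both ages. It was 244 CPM in young sham and 455 CPM in young I/R, a log2 difference of 0.90, and 258 CPM in aged sham and 394 CPM in aged I/R, a log2 difference of 0.61. Sqstm1 alone gave 188 CPM of the sum in young I/R and 171 CPM in aged I/R, so the sum follows it closely. The mRNA levels of Gclm (glutathione synthesis), Slc7a11 (cystine import), Txnrd1 (thioredoxin reduction), Srxn1 (peroxiredoxin repair) and Hmox1 (heme breakdown) were each higher after I/R in both ages. Gclc, the catalytic partner of Gclm, lay between 15.0 and 19.9 CPM and Osgin1 between 3.34 and 3.53 CPM in the 4 libraries. The widest gap between the I/R libraries among the members was at Hmox1, which stood at 7.13 CPM in aged I/R against 28.2 CPM in young I/R. Between the sham libraries, the widest gap among the 9 members with enough counts was at Nqo1, which was higher in aged.

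**Figure D1:**
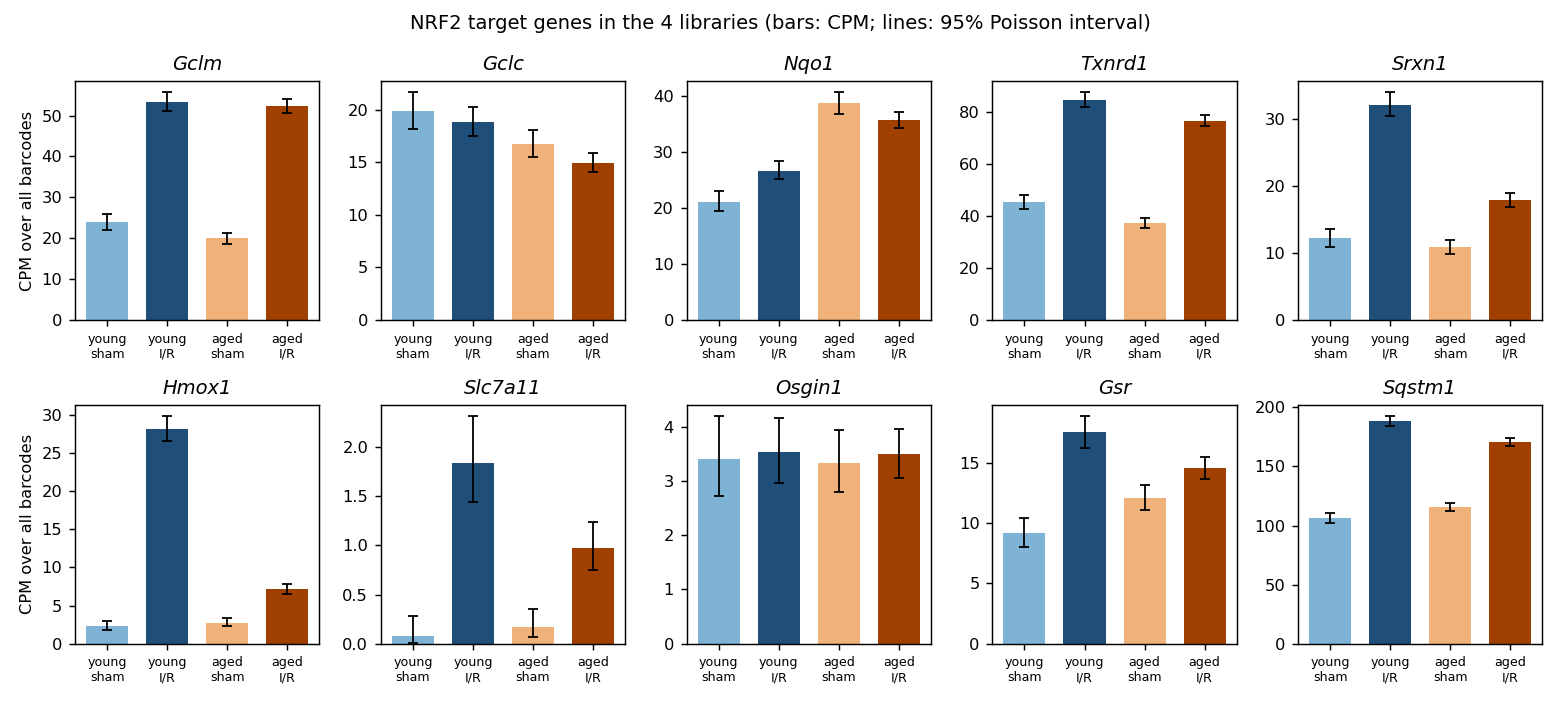
Level of each of the 10 NRF2 target genes in the 4 libraries, in CPM over all barcodes on linear axes that start at 0. Bars are 1 library each and lines are exact 95% Poisson intervals. Hmox1 stands at 28.2 CPM in young I/R and at 7.13 CPM in aged I/R, while Osgin1 lies between 3.34 and 3.53 CPM in every library.

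Gclm encodes the modifier subunit of glutamate-cysteine ligase, the rate-limiting enzyme of glutathione synthesis, and lies on chromosome 3 from 122245557 to 122270732 in GRCm38. Its level was 23.9 CPM in young sham and 53.3 CPM in young I/R, and 19.9 CPM in aged sham and 52.4 CPM in aged I/R. Both I/R libraries stood well above both sham libraries. The ratio of I/R to sham was 2.23 in young (2.04 to 2.44) and 2.63 in aged (2.43 to 2.84), and the 2 I/R libraries differed by a log2 ratio of -0.03 whose interval held 0. That value was -0.44 with scaling by the median of gene-wise ratios and -0.19 without Gm42418, Malat1 and mitochondrial transcripts in the total. On the opposite strand the predicted gene Gm17494 overlaps Gclm. Gm17494 had 63 to 193 UMIs per library against 618 to 3497 of Gclm. Its CPM after I/R was lower in the young and higher in the aged. Whether the counting used strand is not given in the sources used here.

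Gclc encodes the catalytic subunit of the same enzyme. Its level was 19.9 CPM in young sham and 18.9 CPM in young I/R, and 16.8 CPM in aged sham and 15.0 CPM in aged I/R. No neighbouring pair in this order had intervals that were separate. The log2 ratio of I/R to sham was -0.07 (-0.24 to 0.09) in young and -0.16 (-0.30 to -0.02) in aged, so the intervals of the 2 subunits of the ligase were separate in both ages. With gene-wise scaling instead of the library total, the young value of Gclc turned to 0.39 and the aged one was -0.26.

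Slc7a11 encodes xCT, the transporter that brings in cystine for glutathione synthesis, and was the member with the fewest UMIs. In the young it had 2 UMIs under sham and 73 under I/R conditions, corresponding to 0.077 and 1.84 CPM, and in the aged 7 and 65 UMIs, or 0.169 and 0.974 CPM. Nearly all of its UMIs therefore came from the I/R libraries. The ratio of I/R to sham was 23.8 in young with a counting interval of 6.35 to 199.98, and 5.75 in aged with an interval of 2.64 to 14.9. As a log2 ratio the young value was 4.57, and it was 2.86 over barcodes with at least 200 genes. In young sham those barcodes can hold at most 2 UMIs of Slc7a11, and a count of 0 was set to 3 UMIs in ratios. The value of 2.86 may therefore be set by that floor and is not a reliable measure. The aged I/R library had a lower level than the young I/R library, with a log2 ratio of -0.92 (-1.42 to -0.42).

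Gsr encodes glutathione reductase, which returns oxidized glutathione to its reduced form. Its level was 9.17 CPM in young sham and 17.5 CPM in young I/R, and 12.1 CPM in aged sham and 14.5 CPM in aged I/R, and the intervals of all 4 were separate. The I/R libraries were the highest pair, but the gap was far wider in young, where the ratio to sham was 1.91 (1.65 to 2.22), than in aged, where it was 1.20 (1.08 to 1.34).

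Txnrd1 encodes cytosolic thioredoxin reductase, which supplies electrons to thioredoxin. Its level was 45.3 CPM in young sham and 84.5 CPM in young I/R, and 37.4 CPM in aged sham and 76.5 CPM in aged I/R. As for Gclm, both I/R libraries stood above both sham libraries, and the ratio of I/R to sham was 1.87 (1.75 to 1.996) in young and 2.05 (1.93 to 2.17) in aged. Eid3, which shares sequence positions and strand with Txnrd1, had 77 to 236 UMIs per library against 1170 to 5108 of Txnrd1.

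Srxn1 encodes sulfiredoxin, which repairs overoxidized peroxiredoxins. Its level was 12.2 CPM in young sham and 32.2 CPM in young I/R, and 10.9 CPM in aged sham and 17.9 CPM in aged I/R. The sham libraries had overlapping intervals, and the aged I/R library lay between them and the young I/R library. The ratio of I/R to sham was 2.64 (2.33 to 3.00) in young and 1.64 (1.47 to 1.83) in aged, and the aged I/R level was 0.555 times the young I/R level (0.513 to 0.601).

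Hmox1 encodes heme oxygenase 1, the inducible enzyme that opens the heme ring and releases iron. In the young it had 59 UMIs under sham and 1117 under I/R conditions, corresponding to 2.28 and 28.2 CPM, and in the aged 114 and 476 UMIs, or 2.76 and 7.13 CPM. The young I/R library stood far above the other three, the sham libraries had overlapping intervals, and the aged I/R library lay in between. The ratio of I/R to sham was 12.3 (9.49 to 16.3) in young and 2.59 (2.10 to 3.20) in aged. Between the I/R libraries, the aged level was 0.253 times the young level (0.227 to 0.282). Among the 16491 genes compared between the I/R libraries, Hmox1 ranked 16452 from the top.

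Nqo1 encodes a quinone reductase that uses NADH or NADPH, and it lies on chromosome 8 from 107388225 to 107403206. Its level was 21.2 CPM in young sham and 26.7 CPM in young I/R, and 38.8 CPM in aged sham and 35.8 CPM in aged I/R. It was ordered by age, with both aged libraries above both young libraries. The aged sham level was 1.83 times the young sham level (1.66 to 2.02), which placed Nqo1 at rank 722 of 15875 genes. Its log2 ratio after I/R, against sham, was 0.34 (0.19 to 0.49) in young and -0.12 (-0.21 to -0.03) in aged. The order by age depends on the scaling between the I/R libraries, where the log2 ratio of aged to young was 0.42 by library total and 0.004 by gene-wise ratios. Gene-wise scaling also brought the young I/R ratio of Nqo1 to 0.81 on the log2 scale, past the 1.5-fold limit used below.

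Sqstm1 encodes p62, an autophagy receptor that also binds KEAP1. Its level was 106 CPM in young sham and 188 CPM in young I/R, and 116 CPM in aged sham and 171 CPM in aged I/R, with separate intervals throughout. The ratio of I/R to sham was 1.77 (1.70 to 1.85) in young and 1.48 (1.43 to 1.53) in aged. The aged ratio fell just short of the 1.5-fold limit used below. Sqstm1 was the member with the most UMIs, from 2743 to 11402 per library, and Mrnip on the opposite strand had 48 to 119.

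Osgin1 encodes an oxidative stress induced growth inhibitor. Its level was 3.41 CPM in young sham and 3.53 CPM in young I/R, and 3.34 CPM in aged sham and 3.49 CPM in aged I/R, all with overlapping intervals. With 88 to 233 UMIs per library, its log2 ratio of I/R to sham was 0.05 (-0.34 to 0.45) in young and 0.06 (-0.24 to 0.38) in aged, and the latter turned to -0.03 with gene-wise scaling. Changes smaller than these intervals were not detectable at this depth.

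To place the members among all genes, a gene was counted as higher or lower where its ratio was at least 1.5-fold, among genes with at least 20 UMIs over the 2 libraries. In young I/R compared to young sham, 7 of the 10 members were higher and 0 were lower. Of the 15465 genes compared, 6.36% were higher and 46.1% were lower, with a median log2 ratio of -0.51 over all genes. The 7 were Gclm, Txnrd1, Srxn1, Hmox1, Slc7a11, Gsr and Sqstm1. With 2 UMIs in young sham, Slc7a11 reached the limit of 20 UMIs only through the I/R library. Its call as higher therefore followed from passing that filter. The median log2 ratio of the members was 0.92, and all 10 lay above the median of all genes. Slc7a11 ranked 22, Hmox1 ranked 45, Srxn1 ranked 319 and Gclm ranked 420 from the top.

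The low median of all genes in this comparison moved with the makeup of the libraries. The transcript Gm42418 took 11.5% of the UMIs in young sham and 19.4% in young I/R, Malat1 took 7.34% and 2.22%, and mitochondrial transcripts took 10.0% and 14.1%. Without these transcripts in the total, the median log2 ratio of all genes was -0.37 and 7 members were again higher. The shares of all genes with that total are not given here.

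In the aged mice, comparing I/R to sham, 5 of the 10 members were higher and 0 were lower, while 16.7% of the 16761 genes compared were higher and 9.71% lower. The 5 were Gclm, Txnrd1, Srxn1, Hmox1 and Slc7a11. The median log2 ratio was 0.64 for the members and 0.09 for all genes, and 7 members lay above the latter. Slc7a11 ranked 73, Gclm ranked 419 and Hmox1 ranked 430 from the top.

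**Figure D2:**
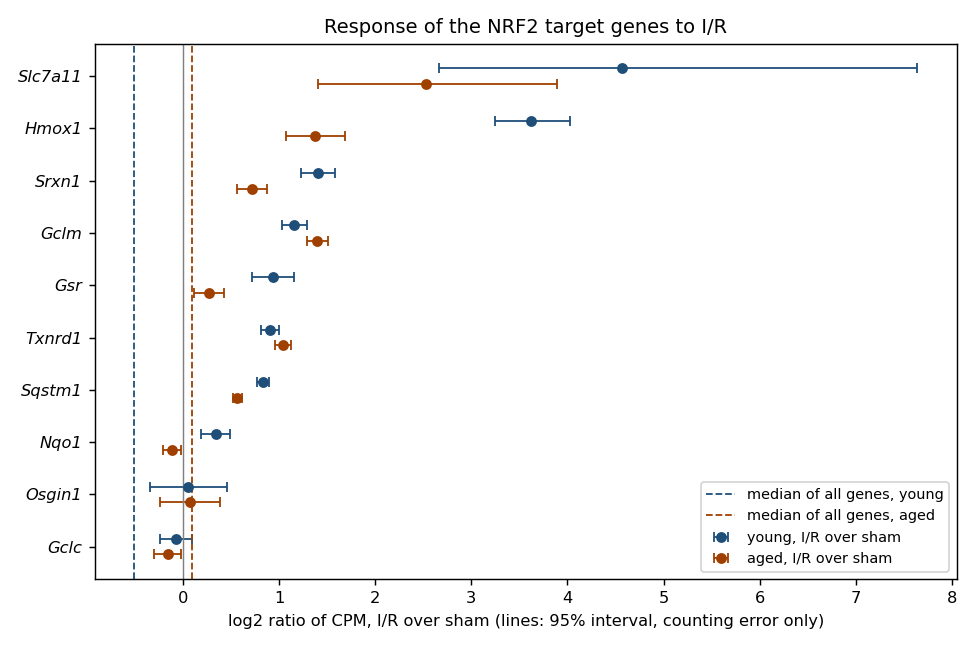
Log2 ratio of CPM between I/R and sham for each member in young (blue) and aged (brown) mice, with exact 95% intervals for counting error. Dashed lines give the median of all genes, -0.51 in young and 0.09 in aged. The points of Hmox1 are the farthest apart among members whose intervals are separate, at 3.62 and 1.37, while those of Gclm and Txnrd1 lie close together.

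**Figure D3:**
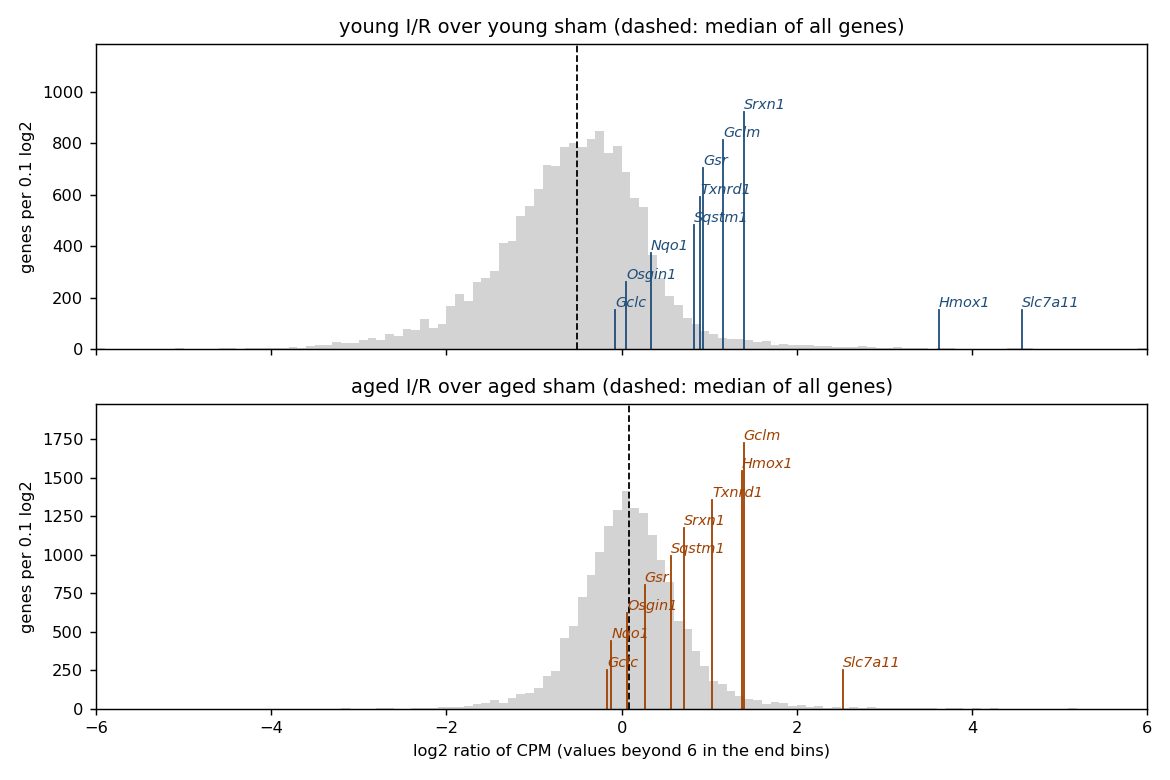
Distribution of the log2 ratio of CPM between I/R and sham over all genes compared (grey, genes per bin of 0.1), in young above and aged below, with the 10 members as lines whose heights only separate the names. In young all 10 members lie to the right of the dashed median, and in aged 7 of 10 do.

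When comparing aged sham to young sham, 9 members had enough UMIs. Of these, 1 was higher, Nqo1, and 0 were lower, while 8.99% of 15875 genes were higher and 19.8% lower. The members had a median log2 ratio of -0.03 and all genes one of -0.14. The median of the members turned to 0.12 with gene-wise scaling and to 0.05 with the reduced total. Gclm, Gclc and Txnrd1 had lower levels in aged sham, with log2 ratios of -0.26, -0.24 and -0.28 and intervals that did not hold 0. With gene-wise scaling these ratios were nearer to 0, at -0.11, -0.10 and -0.13. Gsr was higher, at 0.40 (0.17 to 0.63). Slc7a11 was not compared, since it had 9 UMIs over both libraries.

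When comparing aged I/R to young I/R, 0 members were higher and 3 were lower, Srxn1, Hmox1 and Slc7a11, while 42.7% of 16491 genes were higher and 4.38% lower. The median log2 ratio was -0.21 for the members against 0.47 for all genes, and none of the 10 lay above the latter. Nqo1 was nearest to it, with a log2 ratio of 0.42 (0.31 to 0.52). Gene-wise scaling brought the median of all genes to 0.05 and left 0 members higher and 5 lower, without shares of all genes to set beside these counts.

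The I/R response was then compared between ages as the aged log2 ratio minus the young log2 ratio, with the outer bounds of the 2 intervals. This difference was -2.25 (-2.95 to -1.57) for Hmox1, -0.69 (-1.03 to -0.35) for Srxn1, -0.67 (-1.04 to -0.30) for Gsr, -0.45 (-0.70 to -0.21) for Nqo1 and -0.26 (-0.38 to -0.15) for Sqstm1. For these 5 members the bounds did not include 0. For Gclm it was 0.24 (-0.006 to 0.48) and for Txnrd1 0.13 (-0.05 to 0.31), and the bounds of both included 0. For Slc7a11, with 2 UMIs in young sham, it was -2.05 (-6.24 to 1.23), and for Gclc and Osgin1 it was -0.09 and 0.01, each with bounds that included 0. Over all genes the median log2 ratio was itself higher in aged than in young. Relative to these medians the difference was -2.85 for Hmox1, -1.29 for Srxn1, -0.36 for Gclm and -0.46 for Txnrd1, and it was negative for all 10 members. The shares of all genes with bounds that excluded 0, or with a negative relative difference, were not counted. These counts of members therefore have no background beside them.

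The genes that control NRF2 gave mixed values. Of 10 regulators, 2 were at least 1.5-fold higher and 3 lower in young I/R compared to young sham, and 0 were higher or lower in the aged. The shares over all genes were 6.36% higher and 46.1% lower in young, and 16.7% and 9.71% in aged. Nfe2l2 itself had 55.7 CPM in young sham and 62.3 CPM in young I/R, and 43.3 CPM in aged sham and 64.3 CPM in aged I/R. This gave a log2 ratio of I/R to sham of 0.16 (0.07 to 0.26) in young and 0.57 (0.49 to 0.65) in aged. The aged ratio minus the young one was 0.41, but -0.19 relative to the medians of all genes. Which age had the larger Nfe2l2 response therefore depends on the scaling. NRF2 is regulated mainly at the protein level, which was not measured in these libraries.

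Keap1, the adaptor that holds NRF2 down, had a log2 ratio of I/R to sham of -0.40 in young and 0.25 in aged. Bach1, the repressor, went from 57.0 CPM in sham to 33.5 CPM in I/R in the young and from 38.0 to 48.9 CPM in the aged, hence a log2 ratio of -0.77 in young and 0.37 in aged. Of the small MAF partners, Mafk had a log2 ratio of 1.36 in young and 0.15 in aged, Maff had 1.79 and 0.20, and Mafg, the one with the highest count, had -0.70 and 0.14. Maff rests on 40 UMIs in young sham and 213 in young I/R. Relative to the median of all genes, the young value was 0.11 for Keap1, -0.26 for Bach1 and -0.19 for Mafg, so the direction of Keap1 depends on the scaling.

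Between the sham libraries 2 of the 10 regulators were at least 1.5-fold higher in aged and 2 lower, against 8.99% and 19.8% of all genes. The higher were Maff and Mafk, with log2 ratios of 1.06 and 0.65, and the lower were Bach1 and Mafg, with -0.59 and -0.74. Between the I/R libraries 2 were higher in aged and 0 lower, against 42.7% and 4.38% of all genes, and Bach1 had a log2 ratio of 0.55 where the median of all genes was 0.47.

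**Figure D4:**
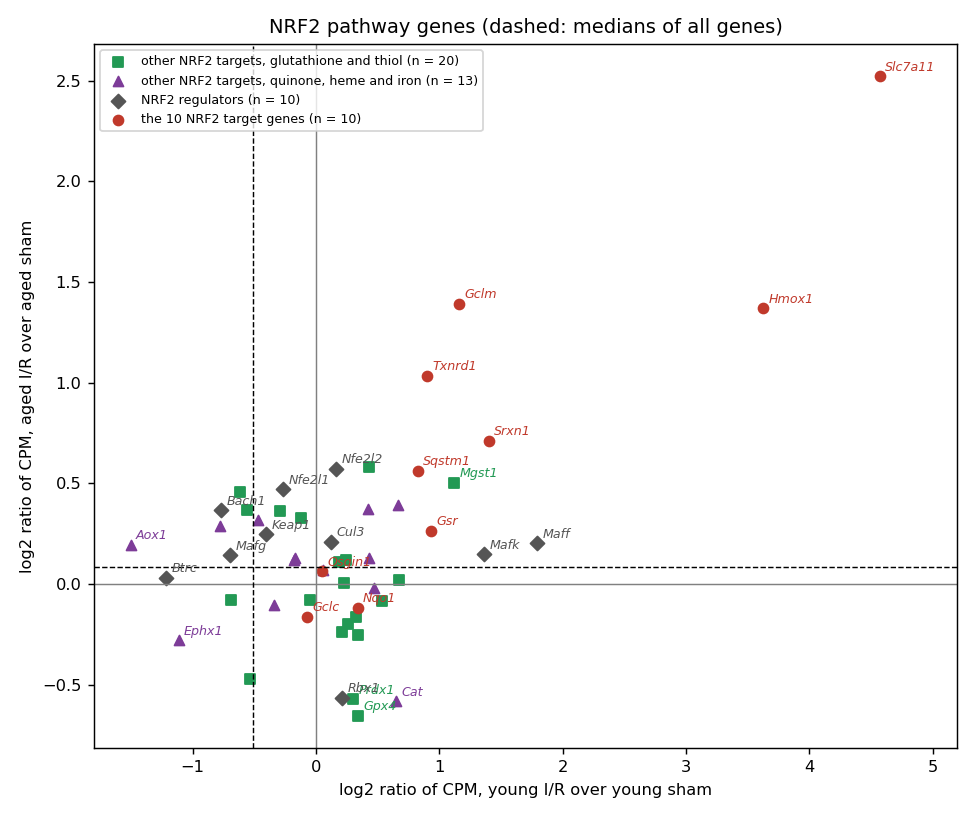
Log2 ratio of CPM between I/R and sham in young (horizontal) and aged (vertical) mice for the 10 members (red), 10 NRF2 regulators (grey) and other NRF2 targets (green and purple), with names for members, regulators and a few distant points. Dashed lines are the medians of all genes. Hmox1 and Slc7a11 lie farthest to the right and Slc7a11 highest, while Mgst1, one of the other targets, lies near Sqstm1 and Srxn1.

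Other known NRF2 targets were read as a list of 21 genes for glutathione and thiols and a list of 14 for quinones, heme and iron. In young I/R compared to young sham, 2 of the 20 glutathione and thiol genes with enough UMIs were higher and 2 lower, with a median log2 ratio of 0.24 against -0.51 for all genes. In the aged, 0 of 20 were higher and 1 lower, with a median of -0.04 against 0.09. Of the quinone, heme and iron genes, 2 of 13 were higher and 3 lower in young, with a median of -0.17, and 0 of 14 were higher or lower in aged, with a median of 0.12. Over all genes 6.36% were higher and 46.1% lower in young, and 16.7% and 9.71% in aged.

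The highest in young were Mgst1, a microsomal glutathione transferase, at 27.4 CPM in sham and 59.6 CPM in I/R, then Txn1 (thioredoxin) with a log2 ratio of 0.67 and Ftl1 (ferritin light chain) with 0.67. The lowest were Aox1 (aldehyde oxidase), with 52.3 CPM in sham and 18.5 CPM in I/R, Ephx1 (epoxide hydrolase) with a log2 ratio of -1.11 and Cbr1 (carbonyl reductase) with -0.78. In aged the highest were Gsta4 (glutathione transferase) with 0.58, Mgst1 with 0.50 and Abcc1 (a glutathione conjugate exporter) with 0.46. The lowest were Gpx4, the peroxidase that reduces lipid peroxides, with -0.65, Cat (catalase) with -0.58 and Prdx1 (peroxiredoxin 1) with -0.57. All 3 had the opposite sign in young, where the log2 ratios of I/R to sham were 0.34 for Gpx4, 0.65 for Cat and 0.30 for Prdx1.

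In aged sham compared to young sham, 3 of 20 glutathione and thiol genes were higher and 0 lower, led by Gstm1 with a log2 ratio of 0.74 and Mgst1 with 0.66. Of the quinone, heme and iron genes 3 of 13 were higher, with Cbr3 at 0.66 on few UMIs, and 1 was lower, Aox1 at -1.10. Abcc1 and Slc40a1 (ferroportin, the iron exporter) had -0.52 and -0.55. Over all genes 8.99% were higher and 19.8% lower in that comparison. Between the I/R libraries, 3 of 20 and 5 of 14 were higher in aged and 0 were lower in either list, while 42.7% of all genes were higher and 4.38% lower. Ephx1 with 1.24, Gsta3 with 1.16 and Cbr1 with 0.88 were the highest, and Cat, Prdx1 and Taldo1 (a pentose phosphate enzyme) were the lowest with -0.58, -0.55 and -0.54.

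Across the 4 libraries, the genes nearest in profile were sought among 10541 genes with at least 100 UMIs in every library, by the root mean square distance of log2 CPM after centring. Each profile has only 4 points, which share their library totals, so this is a description. Nearest to the mean profile of the members were Adamts1, Per1 and Tinagl1, at distances of 0.05 to 0.10. Every member had equal weight in this mean. Slc7a11 and Hmox1, with the highest young ratios of I/R to sham, therefore pulled its young values most. The gene nearest to Sqstm1 was Slc3a2, at 0.01, which encodes the heavy chain that pairs with xCT, with 16.2 CPM in sham and 28.5 CPM in I/R in the young, and 17.8 and 25.8 CPM in the aged. The gene nearest to Hmox1 was Mt1 (metallothionein 1), at 0.25, with 235 CPM in young sham and 2090 CPM in young I/R, and 227 CPM in aged sham and 458 CPM in aged I/R, followed by Nmrk2 and Uck2. Srxn1 lay nearest to Sdc4, Cebpb and Rrp12, Gclm to Timp4, Pakap and Zbtb16, and Txnrd1 to Xirp2, Dusp27 and Dnttip2. Gclc lay nearest to Acy3, Retsat and Rom1, Gsr to Lrrc59, Cry1 and Des, Osgin1 to Uxt, Urgcp and Mrps27, and Nqo1 to Cd9, Vat1 and Mcam. Slc7a11 had no gene as close, and its nearest were Lrg1, Prg4 and the neutrophil gene S100a9, at 0.60 to 0.65. Slc7a11 itself had 2 UMIs in young sham, far under the limit of 100 UMIs. Genes as scarce as it could therefore not be named, and its own profile rests on few counts.

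RNA of other cells also differed between the libraries. The summed level of 10 neutrophil markers was 14.8 CPM in young sham and 103 CPM in young I/R, and 25.0 CPM in aged sham and 102 CPM in aged I/R, and of these markers only Ly6g was at 0 UMIs in a library, young sham. Macrophage markers (15 genes) summed to 402, 299, 492 and 541 CPM in the same order, fibroblast markers (14 genes) to 898, 619, 1139 and 1010 CPM, and endothelial markers (15 genes) to 1951, 1677, 2024 and 1899 CPM. Cardiomyocyte markers (18 genes) took 98887 to 119973 CPM, mural markers (8 genes) 567 to 777 CPM and hemoglobin and other red cell markers (5 genes) 1025 to 2567 CPM. Neutrophil RNA was thus higher in both I/R libraries, as were Hmox1 and Slc7a11. The neutrophil sum was 103 CPM in young I/R and 102 CPM in aged I/R, and Hmox1 stood at 28.2 and 7.13 CPM. The part of neutrophil RNA in the members' levels was not tested.

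To see beside which markers the members' UMIs lay, marker UMIs in barcodes with a member's UMI were divided by the number that the totals of those barcodes alone would give. Over the 239 such ratios with an expected number of at least 20, the median was 0.998 and the range 0.411 to 1.49, and 188 of the intervals held 1. The barcodes carried little cell type structure to begin with. Markers of the same list lay beside each other at only 0.989 to 1.002 for cardiomyocyte, 1.04 to 1.20 for endothelial, 1.07 to 1.32 for fibroblast and 1.09 to 1.74 for macrophage markers. Red cell markers lay beside their own kind more often, at 1.85 to 6.31, and neutrophil markers did so at 1.54 in young I/R and 1.39 in aged I/R, while in the sham libraries the expected number of neutrophil UMIs was under 20. The members' UMIs could therefore not be placed among these 4 cell types, and their levels are given for the ventricle as a whole. For neutrophil markers in young I/R, Gsr had the highest ratio among members with an expected number of at least 20. It was 1.47 (1.07 to 1.97), from 45 UMIs against 30.6 expected, and in aged I/R Gsr lay at 1.19 (0.962 to 1.45). Hmox1 lay at 1.13 (0.852 to 1.46) and 1.19 (0.871 to 1.59) for the same markers. Gsr was named here because its ratio was the highest. Neutrophil UMIs also clumped in barcodes, so these intervals are too narrow. Osgin1 and Slc7a11 fell under that expected number in both I/R libraries. Osgin1 had 13 UMIs against 6.35 expected in young I/R and 24 against 19.9 in aged I/R. Slc7a11 had 3 against 3.24 in young I/R and 13 against 5.72 in aged I/R.

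**Figure D5:**
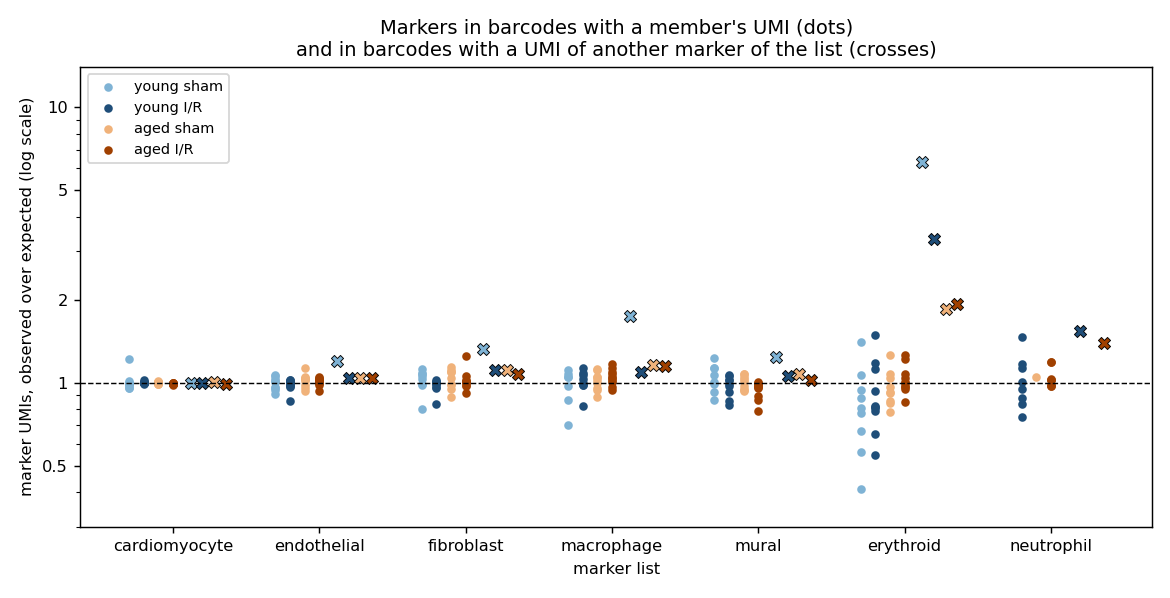
Observed over expected UMIs (log scale) of 7 marker lists in barcodes that held a UMI of a member (dots, 1 per member and library) and in barcodes that held a UMI of another marker of the same list (crosses). Most dots lie near 1, and so do the crosses of the cardiomyocyte and endothelial lists, whereas those of red cell markers lie above it. Ratios with under 20 expected UMIs are not drawn.

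Among the members' ratios with an expected number of at least 20, Gclm showed the highest. It was 1.49 (1.43 to 1.54) for red cell markers in young I/R and 1.26 (1.22 to 1.30) in aged I/R. In the sham libraries Gclm lay at 1.06 (0.976 to 1.15) in young and 0.963 (0.890 to 1.04) in aged. Values above and under 1 both occurred among the other members, with Gsr at 1.22 in aged I/R. Sqstm1 lay at 0.811 (0.789 to 0.833) for the same markers in young I/R. Red cell UMIs clumped in barcodes, as their own ratios show, so these intervals are too narrow. Over barcodes with at least 200 genes the Gclm ratio for red cell markers in young I/R was 1.29. The red cell list was lower after I/R in both ages and Gclm was higher. Whether red cell RNA had a part in the level of Gclm was not tested. Members lay beside the other 9 members at 0.717 to 1.23, with a median of 1.001 over 32 values with an expected number of at least 20. A barcode held at most 5 UMIs of any member.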

How the data were processed

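The authors prepared cell suspensions of left ventricle with 10× Genomics 3′ reagents and processed the reads with Cell Ranger 6.0.2 on the mm10 build, per the labels. The deposited matrices hold raw UMI counts per gene and barcode from its filtered output, with no scaling by the authors. Strand use in counting is not given in the sources used here.

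UMIs were summed over all barcodes of a library and scaled to CPM. Levels have exact Poisson and ratios exact conditional binomial 95% intervals, with Python 3.11.15, numpy 2.4.6, scipy 1.17.1, pandas 2.3.3 and matplotlib 3.10.9. With 1 library per condition no test was run. Called genes differ at least 1.5-fold, among genes with at least 20 UMIs over the 2 libraries. The calculations were tested on simulated data. Gene positions are from the GENCODE annotation of GRCm38 and promoters from RefSeq. No clusters were formed and no doublets or barcodes removed, so shares per cell were not computed.

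The members and lists were chosen with earlier results of these data known. Named genes are the members, 6 regulators, the 3 highest and 3 lowest other targets per comparison with at least 100 UMIs, and the 3 nearest profiles. Alternatives were another scaling, a total without Gm42418, Malat1 and mitochondrial genes, barcodes with at least 200 genes, barcodes in 1 library only, a 2-fold limit and no UMI filter.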

Additional observations from a re-analysis of the deposited data

Results flagged for a closer look

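The response to I/R had opposite signs in the 2 ages, with intervals that did not hold 0, for 1 member, 3 regulators and 9 of the other NRF2 targets named. Since each condition has 1 library, these differences were not tested. The other targets named were picked by their ratios in these same libraries. The share of all genes with opposite signs was not counted, so these numbers have no background beside them. For Nqo1 the aged log2 ratio of I/R to sham minus the young one was -0.45, from higher in young to lower in aged. The other targets with this order were Cat at -1.23, Gpx4 at -0.99, Prdx1 at -0.87, Taldo1 at -0.61 and Gstm1 at -0.45, which act on peroxides, in the pentose phosphate pathway or in glutathione conjugation. In the opposite order, from lower in young to higher in aged, were Keap1 at 0.65, Bach1 at 1.13 and Mafg at 0.84, and the targets Aox1 at 1.70, Abcc1 at 1.07, Cbr1 at 1.06 and Gsta3 at 0.93. The median log2 ratio of all genes was -0.51 in young and 0.09 in aged. Relative to these medians the difference was -1.05 for Nqo1, 0.05 for Keap1, 0.54 for Bach1, 0.24 for Mafg and 1.10 for Aox1.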

How the results depend on the processing

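Each comparison has 1 library per condition, so differences between animals could not be measured, and depth limits Slc7a11 and Osgin1 most. With a 2-fold limit, 4 members were higher in young I/R compared to young sham, 0 were higher in aged sham compared to young sham, and 1, Hmox1, was lower in aged I/R compared to young I/R. Scaling by gene-wise ratios moved the median of all genes by 0.47, -0.09, 0.15 and -0.41 for I/R over sham in the young, for I/R over sham in the aged, and for aged over young under sham and under I/R conditions, and gave 8 higher members in the first and 5 lower in the last. The shares of all genes at the 2-fold limit and with gene-wise scaling are not given here. These member counts therefore have no background beside them. Without the UMI filter, 11.3% of all genes instead of 6.36% were higher in young I/R and 22.9% instead of 9.71% lower in aged I/R, each against sham. For aged over young without that filter, 13.6% were higher and 32.1% lower under sham and 18.8% lower under I/R conditions. The shares without the filter include genes with fewer than 3 UMIs in 1 library and 0 in the other. Because a count of 0 was set to 3 UMIs, such genes could be called in the reverse direction, which distorts these shares. In the other settings the member counts stayed within 1.5 times. No paired analysis was possible because each condition has 1 library.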
